A study of Mus musculus with 6 samples.

Results

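Oocytes that had received both Sudan I and melatonin were compared with unexposed control oocytes, to describe gene by gene what still set the melatonin-treated oocytes apart from the unexposed state. The comparison took in 4 of the 6 libraries of the study, chosen by their labels: 2 of the control condition and 2 that received both Sudan I and melatonin (called melatonin libraries 1 and 2 below). The other 2 libraries, exposed to Sudan I alone, are given beside them. The tissue label of all 6 was germinal vesicle (GV), the stage of the fully grown oocyte arrested before meiosis resumes. No melatonin-only group was analysed here, so the effects of the dye and of melatonin cannot be told apart in this comparison. The sources used here give no strain, age, dose, route, duration or number of oocytes per library. It is also not stated if libraries of one group were made from different mice; p-values therefore describe the spread among these libraries, which may be technical.

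Sudan I is a synthetic azo dye, and melatonin is a hormone of the pineal gland that also acts as a scavenger of reactive oxygen species. A fully grown oocyte makes little new RNA: its transcripts were stored during growth and are used, by regulated translation and decay, until the embryo begins its own transcription. Mitochondria, antioxidant enzymes and DNA damage checkpoints are commonly studied when an oocyte is exposed to a toxicant, and the gene lists below follow those themes.

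The libraries held 20669373 to 26065453 read counts each. All 12 oocyte markers (such as Gdf9, an oocyte growth factor, and Zp2, a zona pellucida protein) were detected in every library and summed to 26630 and 28800 CPM (counts scaled for library size) in control and 26990 and 27830 in melatonin oocytes. Markers of cumulus and granulosa cells, the somatic cells around the oocyte, summed to 666 and 701 CPM in control and 693 and 788 in melatonin oocytes over 17 tested markers. Their levels differed widely: in control Esr2 measured 96.0 and 76.0 CPM and Fshr 1.87 and 2.82. The 3 tested endothelial markers summed to 121 and 118 CPM in control and 118 and 103 in melatonin oocytes. Of these, Pecam1 measured 91.8 and 83.9 CPM in control. Whether the oocyte itself holds such RNA was not tested. Theca and stroma markers summed to 5.84 and 7.24 CPM in control and 4.54 and 10.9 in melatonin oocytes over 7 tested markers. Of 7 blood and immune markers 1 was tested, and the haemoglobin genes Hba-a1 and Hbb-bs had 0 counts in all 6 libraries. The 10 most abundant genes had log2 fold changes between -0.17 and 0.15. Of these, Gdf9 measured 5986 and 5926 CPM in control and 6149 and 7055 CPM in melatonin oocytes, and Nlrp14, a maternal NLR-family gene, 5312 and 5784 CPM in control and 4816 and 5142 CPM in melatonin oocytes.

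Very few genes separated melatonin-treated from control oocytes. In edgeR's quasi-likelihood test 1 of 14124 tested genes (0.00708%) passed an adjusted p of 0.05, and it was higher: Tex15, a gene of meiotic recombination and germline transposon silencing known best from the mouse testis. DESeq2 called 12 genes (0.0850% of those tested), 5 higher (0.0354%) and 7 lower (0.0496%). The higher genes were Tex15, Nipal2, Rbpms, Chd2 and 2610037D02Rik, and the lower ones Ica1l, Gin1, Dbt, Zfp715, Scamp5, Gm17296 and A230046K03Rik. Before adjustment 650 genes (4.60%) had an edgeR p under 0.05, of which 252 (1.78%) were higher and 398 (2.82%) lower. The spread of fold changes was narrow: among 9663 genes with a mean of at least 5 CPM, the 5th and 95th percentiles of the log2 fold change were -0.37 and 0.29. For 9731 genes (68.9%) the 95% interval of the log2 fold change lay within 1 unit of 0, and for the others it was wider or farther from 0.

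**Figure D1:**
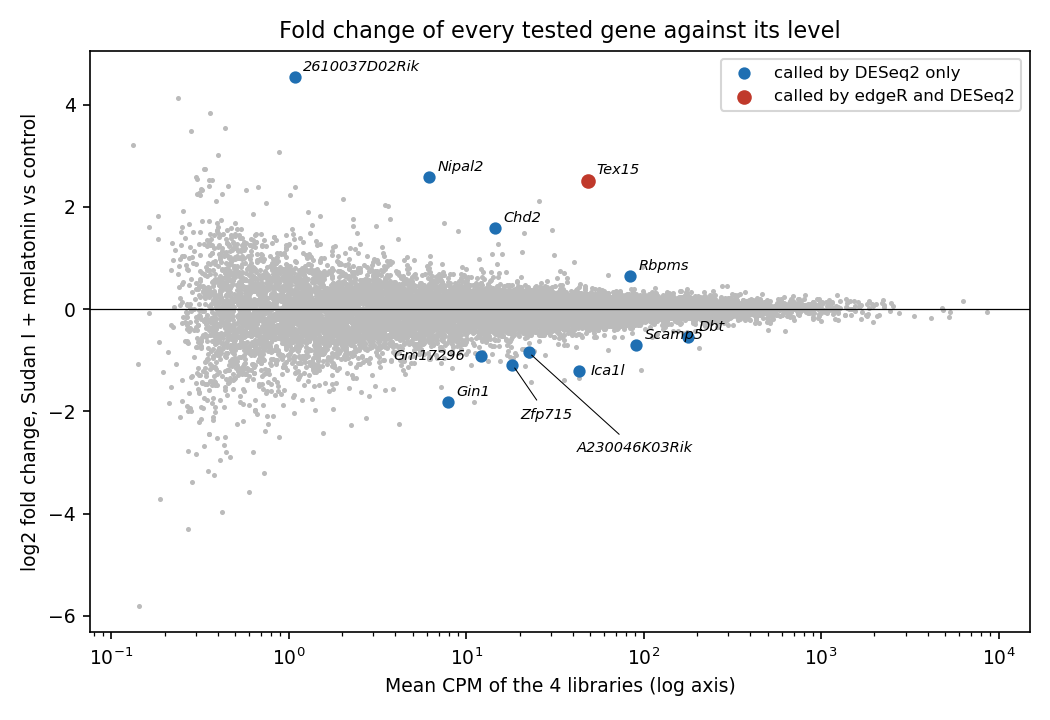
Log2 fold change of Sudan I plus melatonin against control for all 14124 tested genes (vertical axis, edgeR) against the mean CPM of the 4 libraries (horizontal log axis), with grey points for genes called by neither test. The scatter widens toward low levels, and Tex15 stands at 2.51 with a level at which most genes lie close to 0.

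The higher genes are described first. Tex15 lies at chr8:33516738-33585582 on the plus strand (GRCm38, GENCODE M21). It measured 16.6 and 12.5 CPM in the control libraries, 85.0 and 80.5 CPM in the melatonin libraries and 100.5 and 78.7 CPM in the Sudan I libraries. The control values were far below all the others, and the melatonin values lay within the range of the Sudan I values. The mean rose from 14.5 ± 2.90 CPM to 82.8 ± 3.18 CPM (SD, n = 2 each). Its log2 fold change was 2.51 (SE 0.18; edgeR adjusted p = 0.00057, DESeq2 adjusted p = 3.142e-40). Between melatonin and Sudan I oocytes the log2 difference was -0.11 (SE 0.16, edgeR adjusted p = 0.994), with a 95% interval from -0.47 to 0.24.

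Genes near Tex15 on chromosome 8 did not share its difference. Purg, a purine-rich element binding gene 99.3 kb before it, measured 7.93 and 8.35 CPM in control and 9.54 and 9.71 in melatonin oocytes (log2 fold change 0.24, SE 0.21, edgeR adjusted p = 0.956). Wrn, the Werner syndrome helicase gene 131 kb before it, had a log2 fold change of 0.06 (SE 0.14). Ppp2cb, a catalytic subunit of protein phosphatase 2A and 14.0 kb after Tex15, measured 8.21 and 11.2 CPM in control and 6.08 and 6.53 in melatonin oocytes, which is in the other direction (log2 fold change -0.62, SE 0.27, edgeR adjusted p = 0.956). Ubxn8 and Gsr, the next genes after it, had log2 fold changes of -0.01 (SE 0.16) and 0.33 (SE 0.35). The next DESeq2-called gene on this chromosome, Rbpms, begins 197 kb after Tex15 ends.

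**Figure D2:**
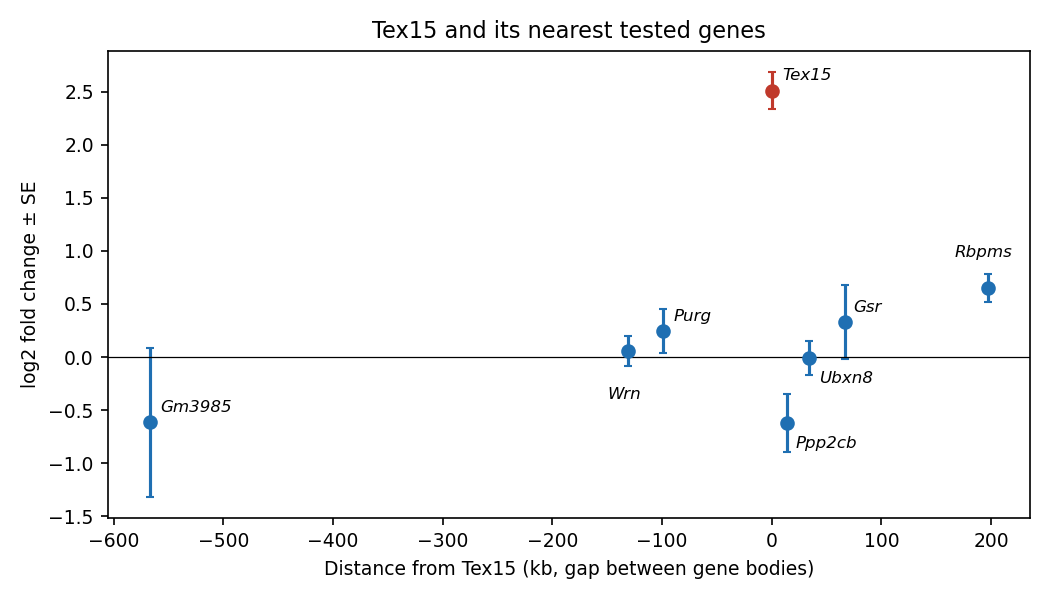
Log2 fold change of Sudan I plus melatonin against control (vertical axis, bars are the SE) for Tex15, its 3 nearest tested genes on each side and Rbpms, by distance in kb (horizontal axis). Tex15 stands alone at 2.51, the 6 neighbours scatter around 0 between -0.62 and 0.33, and Rbpms is at 0.65.

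Nipal2 (chr15:34572799-34679212, minus strand) encodes a member of the NIPA-like family of membrane proteins, related to magnesium transporters. It measured 1.91 and 1.64 CPM in control, 8.99 and 12.2 CPM in melatonin and 8.08 and 16.1 CPM in Sudan I oocytes. The groups did not overlap, and the fold (log2 2.58, SE 0.36) was as large as that of Tex15, at a much lower level. It missed the edgeR threshold (adjusted p = 0.122) and passed DESeq2's (adjusted p = 1.881e-08).

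Rbpms (chr8:33782643-33929863, minus strand), an RNA-binding protein, was at a higher level and differed less. Its control libraries had 69.1 and 61.6 CPM, the melatonin libraries 113.9 and 90.9 CPM and the Sudan I libraries 96.8 and 91.8 CPM. The log2 fold change was 0.65 (SE 0.13, edgeR adjusted p = 0.890, DESeq2 adjusted p = 0.0294).

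Chd2 (chr7:73426638-73541830, minus strand), an ATP-dependent chromatin remodeller, measured 7.29 and 7.28 CPM in control, 28.7 and 15.1 CPM in melatonin and 8.12 and 17.6 CPM in Sudan I oocytes. Its treated libraries differed widely among themselves, and one Sudan I library was close to control. The log2 fold change was 1.58 (SE 0.37, edgeR adjusted p = 0.956, DESeq2 adjusted p = 0.00897). The gene overlaps 5 other annotated genes, of which 1 was tested (1810026B05Rik, log2 fold change 0.26, SE 0.70), and the sources used here do not say whether counting used strand.

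The long noncoding RNA gene 2610037D02Rik (chr15:96134819-96284495, minus strand) had 4 and 0 raw counts in the control libraries, 33 and 62 in the melatonin libraries and 8 and 70 in the Sudan I libraries. With so few control counts no fold is given. DESeq2 called it higher (adjusted p = 0.0494) and edgeR did not (adjusted p = 0.956). Both control counts were below the filter's minimum count of 10, so the gene entered the test only through exposed libraries. A call could thus only be higher, and it adds no support of its own. One Sudan I library stood near the controls.

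The 7 lower genes were called by DESeq2, and edgeR called none of them. Where RefSeq's promoter table (GRCm38.p6) holds an entry, the sequence is shown for a reader who may wish to inspect it. It runs from 250 bases before to 50 bases after the start that table uses, which can differ from the GENCODE position given below. Whether these genes share any regulation was not tested. Of the 12 DESeq2-called genes 4 had an entry, all of them lower. Capitals mark matches, on either strand, to GCGTG (the core bound by the aryl hydrocarbon receptor, so CACGC on the other strand), to TGACNNNGC (the antioxidant response element core) or to CACGTG (an E-box).
Ica1l (chr1:60043073-60043372, minus strand): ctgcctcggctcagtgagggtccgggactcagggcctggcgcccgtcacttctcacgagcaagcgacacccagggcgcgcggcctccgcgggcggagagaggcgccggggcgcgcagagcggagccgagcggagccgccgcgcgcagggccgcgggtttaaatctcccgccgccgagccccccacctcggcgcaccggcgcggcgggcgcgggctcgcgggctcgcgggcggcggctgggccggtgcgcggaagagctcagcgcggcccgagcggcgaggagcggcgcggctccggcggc
Gin1 (chr1:97769922-97770221, plus strand): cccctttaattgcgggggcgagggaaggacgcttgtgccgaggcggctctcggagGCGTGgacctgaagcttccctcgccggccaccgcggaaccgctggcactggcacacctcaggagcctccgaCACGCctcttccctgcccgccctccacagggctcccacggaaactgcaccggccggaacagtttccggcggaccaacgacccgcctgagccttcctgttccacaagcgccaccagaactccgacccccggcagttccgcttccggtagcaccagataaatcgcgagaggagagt
Zfp715 (chr7:43313251-43313550, minus strand): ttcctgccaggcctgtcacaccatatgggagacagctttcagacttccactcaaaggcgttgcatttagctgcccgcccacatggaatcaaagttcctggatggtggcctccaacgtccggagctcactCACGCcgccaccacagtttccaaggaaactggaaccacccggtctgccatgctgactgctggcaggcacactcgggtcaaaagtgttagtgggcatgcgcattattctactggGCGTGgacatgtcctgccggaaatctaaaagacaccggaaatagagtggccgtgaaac
Scamp5 (chr9:57468011-57468310, minus strand): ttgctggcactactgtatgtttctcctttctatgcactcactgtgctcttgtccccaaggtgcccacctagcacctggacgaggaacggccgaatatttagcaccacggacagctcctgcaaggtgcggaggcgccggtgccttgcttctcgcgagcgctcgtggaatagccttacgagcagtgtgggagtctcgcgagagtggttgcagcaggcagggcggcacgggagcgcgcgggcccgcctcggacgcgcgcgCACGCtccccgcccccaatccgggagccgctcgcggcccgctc
Gin1 and Zfp715 hold 2 matches each to GCGTG, Scamp5 holds 1 and Ica1l none. The same letters occur in 32.5% of the 27025 promoters of this length in the table. None of the 4 holds TGACNNNGC (12.5% of all promoters) or CACGTG (7.24%). Over all 13 promoters found for the genes described singly, 8 hold GCGTG, 3 hold TGACNNNGC, 2 hold CACGTG and 0 hold TGACGTCA, the cyclic AMP response element (1.88% of all promoters). Only 4 of these 13 belong to called genes, and the others are next genes by p in either direction. The share of G and C in the 13 ran from 51.7% (Rab3b) to 81% (Yy1), and GCGTG itself holds a CG. The shares over all promoters were not matched for base composition or limited to tested genes, so an excess of matches was not tested. A match describes letters and is not a binding site.

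Ica1l (chr1:59982490-60043184, minus strand) encodes a membrane-curving BAR-domain protein related to islet cell autoantigen 1. It measured 64.9 and 55.2 CPM in control, 27.0 and 25.0 CPM in melatonin and 26.4 and 31.9 CPM in Sudan I oocytes. All 4 exposed libraries were well below both controls. The log2 fold change was -1.21 (SE 0.16), with an edgeR adjusted p of 0.0983 and a DESeq2 adjusted p of 1.881e-08. Fam117b, which overlaps it on the opposite strand, measured 220.5 and 184.0 CPM in control and 225.9 and 172.1 in melatonin oocytes (log2 fold change -0.02, SE 0.14; positive in 4 of the alternative fits).

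Gin1 (chr1:97770172-97793709, plus strand), a gene derived from a retrotransposon integrase, had 9.76 and 14.9 CPM in control, 3.85 and 3.14 CPM in melatonin and 4.82 and 6.58 CPM in Sudan I oocytes. The melatonin libraries were the lowest of the 6. Its log2 fold change was -1.82 (SE 0.30, edgeR adjusted p = 0.340, DESeq2 adjusted p = 0.000165). Ppip5k2, an inositol pyrophosphate kinase gene that overlaps Gin1 on the opposite strand, had lower values too, at 147.0 and 146.2 CPM in control and 117.2 and 105.6 in melatonin oocytes (log2 fold change -0.40, SE 0.11, edgeR adjusted p = 0.956). Without strand the reads of such a pair cannot be told apart where the genes overlap. Here the annotated spans share only the stretch from 97770172 to 97770411.

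Dbt (chr3:116513070-116549981, plus strand) encodes the acyltransferase core of the branched-chain keto acid dehydrogenase, the mitochondrial complex that commits leucine, isoleucine and valine to breakdown. Its values were 217 and 205 CPM in control, 147 and 142 CPM in melatonin and 199 and 208 CPM in Sudan I oocytes. Only the melatonin libraries were low: the Sudan I libraries were close to control. The log2 fold change against control was -0.54 (SE 0.10, edgeR adjusted p = 0.49, DESeq2 adjusted p = 0.0108), and that against Sudan I was -0.49 (SE 0.10, edgeR adjusted p = 0.722).

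Gm17296 and A230046K03Rik had the same arrangement of groups. Gm17296 (chr8:126425329-126475065, minus strand) measured 14.8 and 17.0 CPM in control, 8.55 and 8.20 CPM in melatonin and 18.7 and 17.1 CPM in Sudan I oocytes. Its log2 difference was -0.92 (SE 0.19, DESeq2 adjusted p = 0.0494) from control and -1.10 (SE 0.19, edgeR adjusted p = 0.547) from Sudan I. Coa6, a cytochrome c oxidase assembly factor that overlaps it on the opposite strand, had a log2 fold change of 0.05 (SE 0.24), a sign that turned in 4 of the alternative fits. A230046K03Rik (chr10:83543752-83596473, plus strand) measured 29.4 and 28.4 CPM in control, 13.8 and 18.3 CPM in melatonin and 29.1 and 34 CPM in Sudan I oocytes. Its log2 difference was -0.85 (SE 0.18, DESeq2 adjusted p = 0.0294) from control and -0.97 (SE 0.18, edgeR adjusted p = 0.596) from Sudan I. In these 3 genes both melatonin libraries were below all 4 others, and none passed edgeR against either group.

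Zfp715 (chr7:43296197-43313294, minus strand), a zinc finger gene, measured 22.7 and 26.9 CPM in control, 12.8 and 10.5 CPM in melatonin and 15.8 and 19.3 CPM in Sudan I oocytes, with the Sudan I libraries between the other groups. Its log2 fold change was -1.09 (SE 0.19, edgeR adjusted p = 0.49, DESeq2 adjusted p = 0.00242). Scamp5 (chr9:57441327-57468060, minus strand), a secretory carrier membrane protein of vesicle traffic, measured 98.1 and 127 CPM in control, 71.6 and 67.2 CPM in melatonin and 71.3 and 80 CPM in Sudan I oocytes. All 4 exposed libraries of Scamp5 were below the controls (log2 fold change -0.70, SE 0.14, edgeR adjusted p = 0.890, DESeq2 adjusted p = 0.0157).

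The next genes by p, none of which passed either test, were taken in the same number per direction up to 12. Higher in both melatonin libraries were Slc23a3 (a member of the nucleobase and ascorbate transporter family), with 7.11 and 13.3 CPM in control and 22 and 21.1 CPM in melatonin oocytes, and Rab3b (a GTPase of regulated secretion), with 21.2 and 19.7 CPM in control and 26.7 and 58.2 CPM in melatonin oocytes. Gpd1l, a glycerol-3-phosphate dehydrogenase-like enzyme, measured 75.7 and 65.7 CPM in control and 132.5 and 117.1 CPM in melatonin oocytes. The Sudan I libraries of Gpd1l were split, with 67.1 and 123.9 CPM. Map1lc3a, which encodes the autophagosome protein LC3A, was at 38.9 and 40.3 CPM in control and 51.1 and 56.7 CPM in melatonin oocytes. Of the remaining higher genes, Zfp69 and Isoc2a had log2 fold changes of 0.55 (SE 0.15) and 0.78 (SE 0.21).

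The 5 next lower genes were Yy1, a zinc finger transcription factor, Dr1, a repressor that binds TBP, Syncrip, an RNA-binding protein, Cct6a, a chaperonin subunit, and Zfp395, a zinc finger gene. Yy1 measured 27.4 and 45.3 CPM in control and 18.1 and 20.8 CPM in melatonin oocytes, with 23.4 and 26.8 CPM in Sudan I oocytes. Dr1 measured 22.4 and 36.3 CPM in control and 15.4 and 15.8 CPM in melatonin oocytes. Syncrip measured 24.5 and 37.0 CPM in control and 16.7 and 18.3 CPM in melatonin oocytes. In each of these 3 the second control library was well above the first. Cct6a and Zfp395 had log2 fold changes of -0.87 (SE 0.21) and -1.02 (SE 0.26), with the same gap between the controls.

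**Figure D3:**
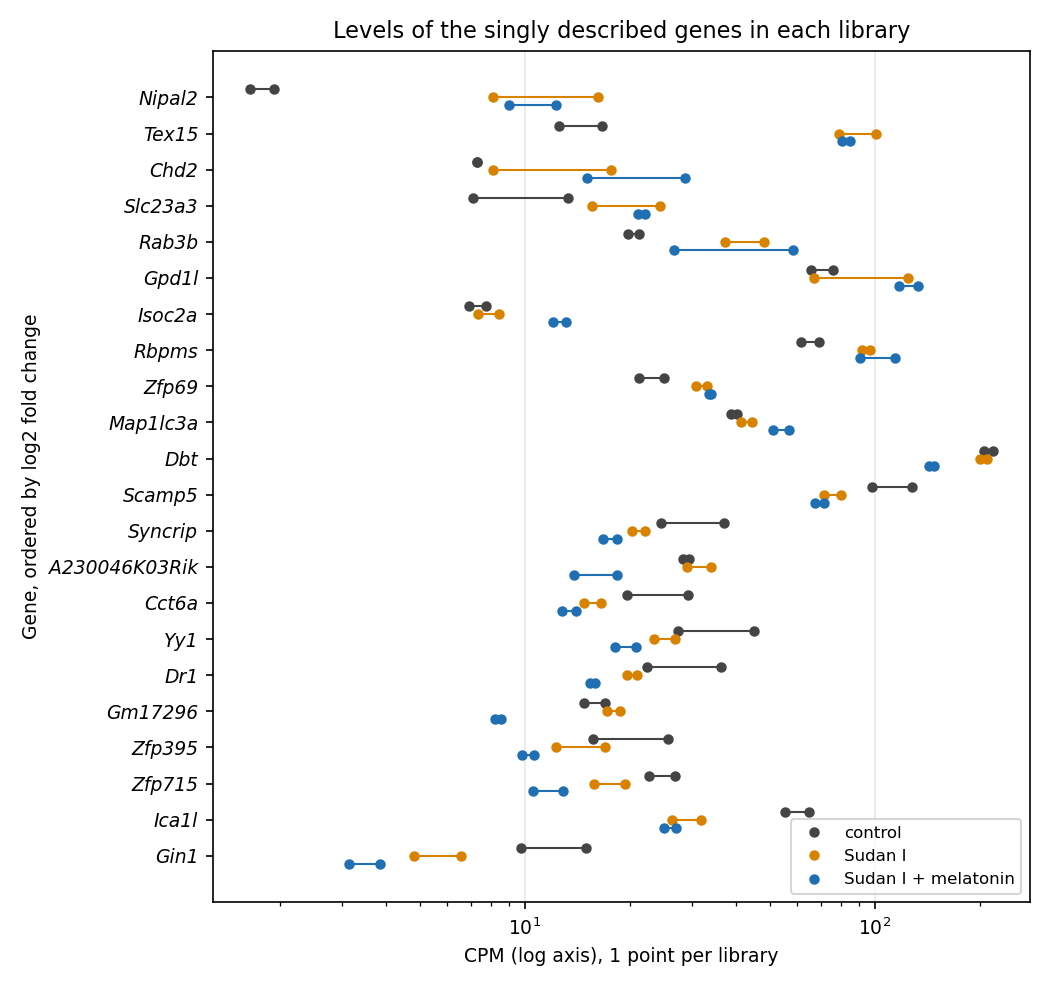
CPM (horizontal log axis) of 22 genes described singly, 1 point per library, with a line joining the 2 libraries of a group; 2610037D02Rik, with 0 counts in 1 library, is left out. Tex15, Nipal2, Ica1l and Scamp5 have both exposed groups on one side of control, while in Dbt, Gm17296 and A230046K03Rik the Sudan I libraries sit with the controls.

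Genes of the protein-making and energy-making machinery were mostly a little above control, by more in melatonin library 2 than in library 1. Of 72 tested cytosolic ribosomal protein genes 59 had a fold change above 0 and 13 below, with a median log2 fold change of 0.24, against 48.9% above 0 and a median of -0.01 over all 14124 genes. None passed edgeR or DESeq2, which called 0.00708% and 0.0850% of all tested genes. Both melatonin libraries exceeded both controls in 26 of the 72 (36.1%; 16.5% of all tested genes), and both were below in 4 (5.56%; 17.0% of all tested genes). Measured from the control mean, the median ribosomal gene was at -0.01 in melatonin library 1 and 0.36 in melatonin library 2. In library 1, 35 of the 72 were above the control mean and in library 2, 65 were. Without melatonin library 2 the median was -0.01, so the difference of this list rests on that library.

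Ribosomal genes picked by small p showed this split unevenly. Rpl32 leaned toward melatonin library 2, while in Rpsa and Rpl37 both melatonin libraries were above both controls by similar amounts. Rpsa, a small-subunit protein, measured 30.0 and 20.4 CPM in control and 40.4 and 44.1 CPM in melatonin oocytes (log2 fold change 0.75, SE 0.22). Rpl32, of the large subunit, measured 10.8 and 8.12 CPM in control and 12.7 and 18.5 CPM in melatonin oocytes (0.73, SE 0.25). Rpl37 was at only 1.18 and 0.95 CPM in control and 2.42 and 2.57 CPM in melatonin oocytes (1.22, SE 0.41). Ribosomal protein genes have many processed copies in the genome, so how the counting split their reads is uncertain.

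Mitochondrial lists followed the same order. Of 35 tested subunits of respiratory complex I, the entry point of electrons from NADH, 31 were above 0 and 4 below, with a median of 0.18, and the library medians were 0.08 and 0.31. In library 1, 22 of the 35 were above the control mean and in library 2, 32 were. Both melatonin libraries exceeded both controls in 16 of the 35 (45.7%, against 16.5% of all tested genes) and were below both in 1 (2.86%, against 17.0%). Ndufb6, an accessory subunit, measured 10.3 and 9.72 CPM in control and 14.3 and 14.0 CPM in melatonin oocytes, and Ndufs3, a core subunit, 11.8 and 10.3 CPM in control and 14.5 and 16.4 CPM in melatonin oocytes. For these 2 genes both melatonin libraries were above both controls (log2 fold changes 0.50, SE 0.20, and 0.48, SE 0.19; edgeR adjusted p = 0.956 for each). Without melatonin library 1 the complex I median was 0.31, and without melatonin library 2 it was 0.08.

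Among 40 subunits of complexes II to V, 31 were above 0 and 9 below, with a median of 0.15 and library medians of 0.01 and 0.26. Uqcrh, a complex III subunit, measured 50.9 and 41.8 CPM in control and 61.2 and 60.3 CPM in melatonin oocytes. Uqcrb, another complex III subunit, ran the other way, at 10.3 and 10.2 CPM in control and 7.71 and 7.51 CPM in melatonin oocytes (log2 fold change -0.43, SE 0.21). Of 77 mitochondrial ribosomal proteins 58 were above 0 and 19 below, with a median of 0.12 and library medians of 0.03 and 0.20; 45 of the 77 were above the control mean in library 1 and 63 in library 2. Mrpl24 measured 55.3 and 49.8 CPM in control and 59.6 and 74.1 CPM in melatonin oocytes. Without melatonin library 2 the median of this list was 0.03. Of 32 proteasome subunits, the protease that destroys ubiquitin-tagged proteins, 27 were above 0 and 5 below, with a median of 0.12 and library medians of 0.02 and 0.22. No member of these 4 lists passed edgeR or DESeq2, which called 0.00708% and 0.0850% of all tested genes.

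**Figure D4:**
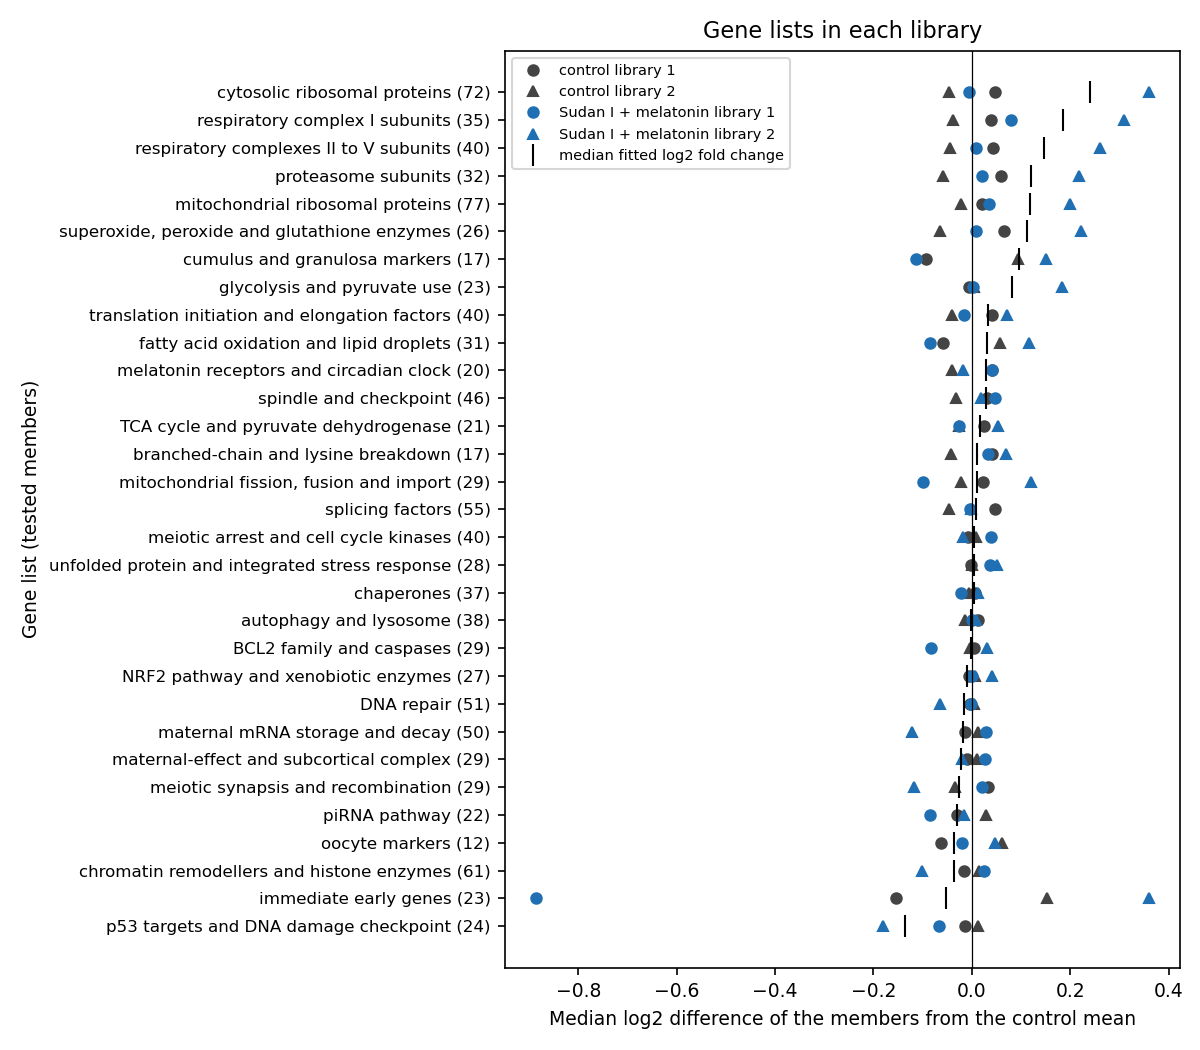
For each of the 31 gene lists with at least 10 tested members (vertical axis, members in brackets), the median log2 difference of the members from the control mean in each of the 4 libraries, with a tick at the median fitted log2 fold change (horizontal axis). In the upper 6 rows melatonin library 2 lies at 0.20 to 0.36 while melatonin library 1 lies at -0.01 to 0.08, and in immediate early genes library 1 lies at -0.89.

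Transcript length moved with this pattern. Genes were put in 5 equal bins by length. In the shortest bin (longest annotated transcript 71 to 1916 bases) the median log2 fold change was 0.09, and in the longest bin (5252 bases and more) it was -0.07. Melatonin library 2 carried this: its median difference from the control mean ran from 0.19 in the shortest bin to -0.15 in the longest, while that of library 1 was 0.01 at both ends. Of the 256 genes in the 5 lists above, 172 lay in the shortest bin, with a median log2 fold change of 0.18, against 0.09 for the other 2629 genes there. The 84 list genes outside the shortest bin had a median of 0.12, against -0.02 for the other 11119 genes outside it. With the length trend removed, the median was 0.13 for cytosolic ribosomal proteins, 0.10 for complex I, 0.05 for complexes II to V and for mitochondrial ribosomal proteins, and 0.07 for the proteasome.

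**Figure D5:**
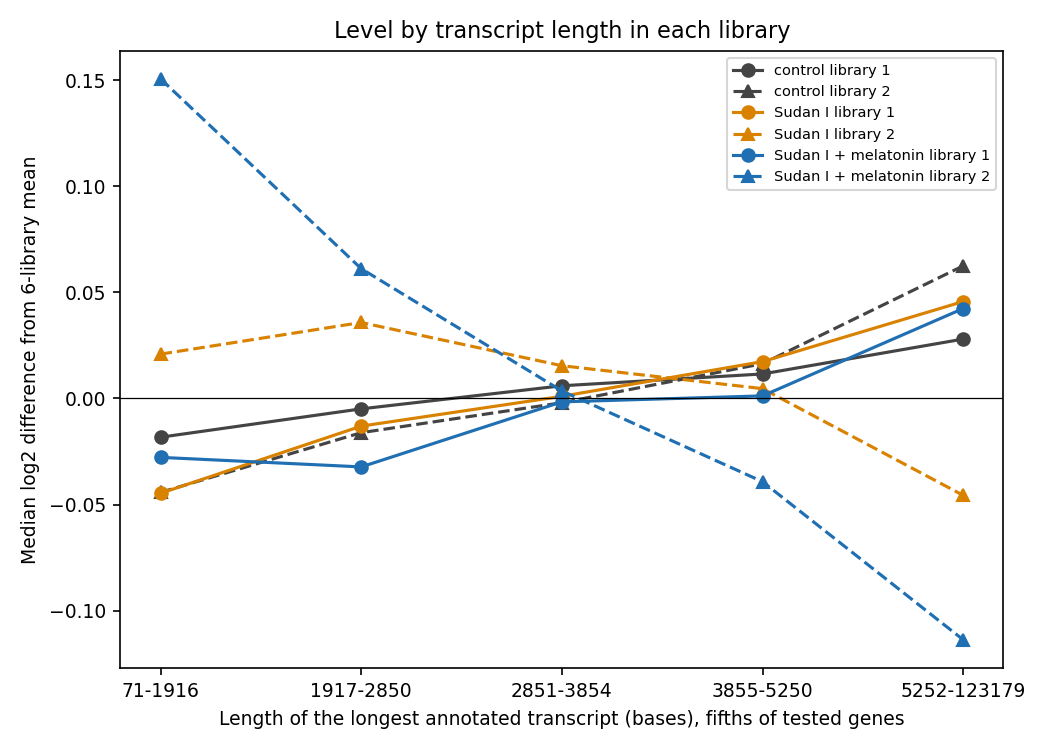
Median log2 difference from the mean of the 6 libraries (vertical axis) in 5 bins of tested genes by length of the longest annotated transcript in bases (horizontal axis), 1 line per library. Melatonin library 2 slopes from 0.15 to -0.11, Sudan I library 2 is the next in that direction, and the other 4 libraries slope slightly the other way.

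Mitochondrial enzymes and regulators did not move as one. The TCA cycle list had 13 of 21 genes above 0 and a median of 0.02. It held 0 genes with an unadjusted edgeR p under 0.05, against 4.60% of all tested genes. Among genes of branched-chain amino acid and lysine breakdown, 12 of 17 were above 0 with a median of 0.01, and Dbt was the 1 that DESeq2 called. Dhtkd1, an E1 enzyme of lysine breakdown, measured 11.1 and 6.71 CPM in control, 14.3 and 16.2 CPM in melatonin and 23.7 and 17.5 CPM in Sudan I oocytes (log2 fold change 0.78, SE 0.26, edgeR adjusted p = 0.956). For mitochondrial dynamics and import, 16 of 29 were above 0. In this list 1 higher and 3 lower members had an unadjusted edgeR p under 0.05 (13.8%, against 4.60% of all tested genes). The higher member, Phb, measured 27.1 and 24.8 CPM in control and 28.5 and 40.45 CPM in melatonin oocytes (log2 fold change 0.41, SE 0.18). Tfam, which packages and transcribes mitochondrial DNA, measured 59.1 and 62.3 CPM in control and 48.7 and 46.1 CPM in melatonin oocytes (log2 fold change -0.36, SE 0.14). Gabpa, a subunit of the nuclear respiratory factor that acts on such genes, measured 6.52 and 8.46 CPM in control and 3.31 and 4.77 CPM in melatonin oocytes (-0.89, SE 0.31). Phb, Tfam and Gabpa did not pass edgeR (adjusted p = 0.956 for each) or DESeq2.

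Antioxidant genes showed small differences. Of 26 tested enzymes of superoxide, peroxide and glutathione handling, 18 were above 0 and 8 below, with a median of 0.11 and library medians of 0.01 and 0.22. An unadjusted edgeR p under 0.05 was reached by 1 gene, 3.85% of the list against 4.60% of all tested genes. This was Gpx4, the glutathione peroxidase of membrane lipid peroxides. It measured 4.83 and 4.50 CPM in control and 6.72 and 8.57 CPM in melatonin oocytes (log2 fold change 0.71, SE 0.25, edgeR adjusted p = 0.956). Sod1, the cytosolic superoxide dismutase, measured 201.9 and 180.0 CPM in control and 207 and 235.7 CPM in melatonin oocytes (0.21, SE 0.11). Of 27 NRF2 pathway and xenobiotic genes, 12 were above 0, with a median of -0.01. In this list 0 genes had an unadjusted edgeR p under 0.05, against 4.60% of all tested genes. Ahr, the receptor for planar aromatic compounds, measured 65.6 and 76.1 CPM in control and 64.8 and 48.4 CPM in melatonin oocytes (-0.32, SE 0.16). Its classical target Cyp1a1 had 0 counts in all 6 libraries, and Cyp1a2 had 9 and 6 counts in control and 1 and 4 in melatonin oocytes. Neither list held a gene that edgeR or DESeq2 called, against 0.00708% and 0.0850% of all tested genes.

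No member of the 3 lists of cell death, damage checkpoints and DNA repair was called by edgeR or DESeq2. Over all tested genes these called 0.00708% and 0.0850%. The BCL2 family and caspases had 14 of 29 genes above 0 and a median of -0.003. Bcl2l1, which encodes the survival protein BCL-XL, measured 200.4 and 197.8 CPM in control and 221.2 and 249 CPM in melatonin oocytes (log2 fold change 0.24, SE 0.10), and Casp2, an initiator caspase of oocyte death in mice, 46.1 and 52.4 CPM in control and 43.2 and 35.0 CPM in melatonin oocytes (-0.34, SE 0.15). Of 24 p53 targets and checkpoint genes 7 were above 0 and 17 below, with a median of -0.14 and library medians of -0.07 and -0.18. Both melatonin libraries were below both controls in 7 of the 24 (29.2%, against 17.0% of all tested genes) and above in 1 (4.17%, against 16.5%). Rad9a, of the 9-1-1 checkpoint clamp, measured 4.74 and 9.49 CPM in control and 3.56 and 4.61 CPM in melatonin oocytes (-0.80, SE 0.35). Of 51 DNA repair genes 22 were above 0 (median -0.02).

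Autophagy, stress and folding genes were split about evenly. Of 38 autophagy and lysosome genes 19 were above 0. An unadjusted edgeR p under 0.05 was reached by 2, 5.26% of the list against 4.60% of all tested genes. They were Map1lc3a, given above, and Sqstm1, the cargo receptor p62. Sqstm1 measured 35.1 and 33.6 CPM in control and 39.6 and 48.3 CPM in melatonin oocytes (log2 fold change 0.36, SE 0.15). The unfolded protein and integrated stress response list had 14 of 28 above 0, and Ppp1r15a, the phosphatase subunit that ends that response, measured 93.9 and 85.7 CPM in control and 107.7 and 112.8 CPM in melatonin oocytes (0.30, SE 0.12). Of 37 chaperones 19 were above 0, and 4 had an unadjusted p under 0.05 (10.8% of the list against 4.60% of all tested genes): Cct6a, Hsp90aa1, Hsph1 and Hspa4, each with a fold change below 0. Hsp90aa1, the inducible HSP90, was abundant and tight within groups, at 2043 and 2200 CPM in control, 1784 and 1778 CPM in melatonin and 2109 and 2075 CPM in Sudan I oocytes (-0.25, SE 0.09, edgeR adjusted p = 0.956). Hspa4, a chaperone of the HSP70 superfamily, measured 388.2 and 409.9 CPM in control and 343.1 and 347.7 CPM in melatonin oocytes (-0.21, SE 0.09).

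Oocyte programmes were near control. Maternal-effect genes, including the subcortical maternal complex, had 13 of 29 genes above 0, a median of -0.02 and a range from -0.21 to 0.27. Zar1, which holds stored messenger RNAs, measured 1198 and 1042 CPM in control and 1238 and 1459 CPM in melatonin oocytes (log2 fold change 0.27, SE 0.11). Btg4, the adaptor that brings the CCR4-NOT deadenylase to maternal messages, measured 677.2 and 592.6 CPM in control and 702.9 and 805 CPM in melatonin oocytes (0.25, SE 0.11). Of 50 genes of maternal messenger RNA storage and decay 21 were above 0, and 1 higher and 4 lower had an unadjusted p under 0.05 (10% of the list against 4.60% of all tested genes). The lower ones were Pabpc1, Ddx6, Dcp1b and Zfp36l2. Ddx6, an RNA helicase of messenger storage, measured 110.1 and 154 CPM in control and 101.9 and 79.0 CPM in melatonin oocytes (-0.55, SE 0.17, edgeR adjusted p = 0.956).

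Meiotic arrest and cell cycle kinases had 20 of 40 genes above 0. Wee1, which keeps CDK1 inhibited, measured 88.2 and 86.6 CPM in control, 71.1 and 62.7 CPM in melatonin and 54.6 and 80.5 CPM in Sudan I oocytes (log2 fold change -0.39, SE 0.17). Spindle and checkpoint genes had 25 of 46 above 0, and Casc5, a kinetochore scaffold, measured 54.8 and 55.4 CPM in control and 48.9 and 33.2 CPM in melatonin oocytes (-0.43, SE 0.17). In the list of meiotic synapsis and recombination, Tex15 was the 1 called gene of 29; 13 were above 0 and the median was -0.03. Of 22 piRNA pathway genes 10 were above 0, and Piwil2, a PIWI protein, measured 15.2 and 29.0 CPM in control and 13.2 and 10.5 CPM in melatonin oocytes, with a wide gap between the controls (-0.90, SE 0.28).

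Of 61 chromatin remodellers and histone enzymes 24 were above 0 and 37 below (median -0.04), where 48.9% of all tested genes were above 0. An unadjusted edgeR p under 0.05 was reached by 2 higher and 6 lower members, 13.1% of the list against 4.60% of all tested genes. The median length of the list, 6376 bases, lies in the longest bin, and its library medians were 0.03 and -0.10. Kdm1b, the oocyte histone demethylase needed for maternal imprints in mice, measured 602.8 and 835.7 CPM in control, 587.8 and 481.9 CPM in melatonin and 583.2 and 610.3 CPM in Sudan I oocytes (log2 fold change -0.43, SE 0.15). Sirt1, an NAD-dependent deacetylase, measured 96.8 and 108.2 CPM in control and 86.0 and 78.8 CPM in melatonin oocytes (-0.31, SE 0.12). Chd2 was the 1 member that DESeq2 called. Among 55 splicing factors 29 were above 0 (median 0.01).

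Melatonin's own receptors were at or near 0: Mtnr1b had 0 counts in all 6 libraries, and Mtnr1a had 1 count in a Sudan I library and 0 in the others. Asmt, the last enzyme of melatonin synthesis, had 3 and 0 counts in control and 0 and 1 in melatonin oocytes. Of 20 tested clock and melatonin genes 12 were above 0 (median 0.03). Nr1d2, a clock repressor of the REV-ERB pair, measured 13.7 and 13.3 CPM in control, 8.79 and 9.51 CPM in melatonin and 11.5 and 9.92 CPM in Sudan I oocytes (log2 fold change -0.56, SE 0.20, edgeR adjusted p = 0.956). Arntl2 was higher in the fit (0.89, SE 0.40), but its libraries overlapped, with 14.4 and 6.67 CPM in control and 13.0 and 25.7 CPM in melatonin oocytes.

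Immediate early genes, which many cells switch on within minutes of a stimulus, differed widely between the 2 melatonin libraries. The 23 tested members summed to 382.6 and 435 CPM in control, 251.2 and 486.1 CPM in melatonin and 304 and 269.3 CPM in Sudan I oocytes. Both Sudan I sums were below both controls, while the melatonin sums lay on either side of them. Of the 23, 2 were above the control mean in melatonin library 1 and 20 in melatonin library 2. Fos and Jun, subunits of the AP-1 transcription factor picked after their values were seen, measured 25.7 and 35.5 CPM and 20.4 and 32.7 CPM in control, and 5.73 and 38.1 CPM and 3.95 and 33.2 CPM in melatonin oocytes. Of 17 tested cumulus and granulosa markers 11 were above 0 and 6 below, with a median of 0.10 and library medians of -0.11 and 0.15. The highest and lowest fold changes of the list were those of Inhbb and Wt1. Inhbb, an inhibin and activin subunit of granulosa cells, measured 15.1 and 4.38 CPM in control, 19.4 and 63.6 CPM in melatonin and 36.4 and 4.33 CPM in Sudan I oocytes. Wt1, a somatic transcription factor, measured 2.87 and 5.87 CPM in control, 1.28 and 1.39 CPM in melatonin and 0.92 and 1.89 CPM in Sudan I oocytes, so that both exposed groups were below both controls. The part of attached somatic cells in these values was not tested, and fewer cells of a type cannot be told apart from less RNA per cell.

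Energy substrate lists gave no called gene, where edgeR called 0.00708% and DESeq2 0.0850% of all tested genes. Of 23 genes of glycolysis and pyruvate use 15 were above 0 (median 0.08, library medians 0.002 and 0.18). Slc16a3, a lactate exporter, measured 1.05 and 1.03 CPM in control, 2.52 and 4.57 CPM in melatonin and 1.88 and 0.68 CPM in Sudan I oocytes (log2 fold change 1.77, SE 0.53, edgeR adjusted p = 0.956). Of 31 genes of fatty acid oxidation and lipid droplets 17 were above 0 (median 0.03). An unadjusted edgeR p under 0.05 was reached by 0 of them, against 4.60% of all tested genes. Across the 36 lists described or drawn, 33 held no gene that DESeq2 called. DESeq2 called only 0.0850% of all tested genes, so an absence of calls in lists of this size says little about their members.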

How the data were processed

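RNA was sequenced from mouse germinal vesicle oocytes in 6 libraries. The authors deposited raw read counts per gene symbol (24369 rows). Libraries followed a standard Illumina protocol, per the labels' protocols; the sources used here name no aligner, counter, genome build or strand setting. Column headers give each library's title with a second code; the codes number control library 2 and both Sudan I libraries differently from the titles, and columns were matched by title. Dates replaced the symbol in 27 rows (0.256% of counts), which were not named.

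All 6 libraries entered 1 edgeR 4.0.16 quasi-likelihood fit (R 4.3.3; TMM scaling, filterByExpr with minimum count 10, 3 residual degrees of freedom, common biological coefficient of variation 0.167). Adjusted p is Benjamini-Hochberg over 14124 tested genes, threshold 0.05. DESeq2 1.42.0 (274 adjusted p-values missing) and limma-voom 3.58.1 were alternatives. The edgeR step was tested on simulated data. CPM are counts scaled to the counts in tested genes times the TMM factor, not per length, so levels are compared within a gene. With 2 libraries against 2 the smallest two-sided p of an exact permutation test is 0.333, and that test was left out. Contrasts with Sudan I share libraries with the main one. Replicate numbers were not used as a block.

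Positions and lengths come from GENCODE M21 (GRCm38; 23203 symbols matched directly, 763 as synonyms, 403 not), which may not be the authors' build. Genes encoded by mitochondrial DNA are not reported here.

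Genes described singly were those called by edgeR or DESeq2, filled to 12 per direction by smallest p among named genes with a mean of at least 5 CPM and groups that did not overlap. Added were the nearest tested genes of an edgeR-called gene, the 10 most abundant genes, and up to 4 members of smallest p per list, not all printed; 1 gene is not reported here. Members and lists were chosen with earlier results of these data known, and motifs and genes that overlap a called gene after values were seen.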

Additional observations from a re-analysis of the deposited data

How the results depend on the processing

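Tex15 was called in every alternative fit, those with DESeq2 and limma-voom included. With single libraries left out, its log2 fold change ran from 2.32 (without control library 2) to 2.73 (without control library 1). The number of called genes was 1 with median-of-ratios size factors, limma-voom, the 4 libraries alone, the replicate block, the length trend removed, and both together. It was 12 with DESeq2 and 93 of 18913 genes with no low-count filter (33 higher, 60 lower), and 1 to 3 when single libraries were left out. It was 3 without control library 1 (Tex15, Tnfsf10 and Fmo5), 2 without control library 2 (Tex15 and Gm13103), 2 without Sudan I library 1 (Tex15 and Nipal2) and 2 without melatonin library 1 (Tex15 and Rilpl1). Leaving out single libraries gave medians of -0.0066 to 0.35 for cytosolic ribosomal proteins, 0.030 to 0.20 for mitochondrial ribosomal proteins and 0.080 to 0.31 for complex I, in each case lowest without melatonin library 2 and highest without melatonin library 1. Of 34 list medians 17 moved by more than the spread between libraries without melatonin library 2, 10 without melatonin library 1, 9 without control library 1 and 6 without control library 2; 5 moved with the length trend removed. No single-gene call was lost, but Tex15 was the only call of the main fit. The other DESeq2 calls were absent with median-of-ratios size factors, limma-voom and the 4 libraries alone. They were also absent with the replicate block and with the length trend removed. With no low-count filter, Nipal2, Ica1l, Chd2, Gin1 and 2610037D02Rik were among the 93 genes called. Of 1847 single-gene values 41 gained a call, mostly with DESeq2 or no low-count filter, and 13 changed sign, all of genes that no test called. With single libraries left out, log2 fold changes ran from -0.061 to 0.17 for Wrn, -0.083 to 0.059 for Ubxn8, -0.29 to 0.040 for Zp2, -0.23 to 0.16 for Fam117b, -0.029 to 0.12 for Coa6, -2.42 to 0.32 for Fos and -2.75 to 0.32 for Jun. With the length trend removed Fam117b came to 0.034 and Coa6 to -0.10, and with the replicate block added to 0.033 and -0.10. The cause was not tested. Numbered by title, the libraries showed little sign of pairing. Same-numbered deviations correlated at 0.07 between control and melatonin, 0.05 between control and Sudan I, and -0.06 between Sudan I and melatonin. The replicate block left the count of called genes at 1. Pairing by the second codes of the column headers and shared batches were not tested. At this depth and with 2 libraries a group, the 95% interval of the log2 fold change reached beyond 1 unit for the genes outside the 68.9% given above.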

Other observations

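Genes with names beginning Zfp and a number were looked at after Zfp715 and Zfp395 appeared among the lower genes. The group was thus chosen after its values were seen. It is a naming group of zinc finger proteins, many of them DNA-binding, and not a single family. Zfp36l2, given above under maternal messenger RNA storage and decay, is among its members. Of 315 tested Zfp genes 87 had a fold change above 0 and 228 below, with a median log2 fold change of -0.12, against -0.01 over all tested genes. Both melatonin libraries were below both controls in 89 (28.2%), against 17.0% of all tested genes, and above in 25 (7.94%), against 16.5%. An unadjusted edgeR p under 0.05 was reached by 3 higher and 24 lower genes, 8.57% of the group against 4.60% of all genes. Their median length was 3686 bases against 3332 for all tested genes, and 23.2% of them lay in the longest of 5 equal bins of all tested genes. The part of length in this was not tested.

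Single members had these values. Zfp617 measured 7.34 and 8.80 CPM in control, 3.85 and 4.61 CPM in melatonin and 5.65 and 6.58 CPM in Sudan I oocytes. Zfp644 measured 12.1 and 19.9 CPM in control, 9.34 and 8.45 CPM in melatonin and 9.97 and 11.9 CPM in Sudan I oocytes. Zfp263 measured 15.4 and 18.4 CPM in control, 10.1 and 10.6 CPM in melatonin and 10.4 and 17.6 CPM in Sudan I oocytes. None passed edgeR (adjusted p = 0.956 for each) or DESeq2, and Zfp69 ran the other way.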
